A study of Hordeum vulgare with 24 samples.

Results

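The genotype by temperature interaction at stage W2.5 asks whether high temperature changed a gene by a different amount in HvMADS1-mutant barley than in wild type. It is the difference of 2 differences on the log2 scale, (mads1 HT minus mads1 LT) minus (WT HT minus WT LT), so a positive value means that HT minus LT was larger, or less negative, in the mutant. The comparison was taken from the labels of genotype, temperature and stage, which give 12 of the 24 libraries of the study. One library, WT HT replicate 3, stands apart from all others, and the interaction is given first without it, from 11 libraries, and then with it.

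The plants were barley of the cultivar Golden Promise. The 4 groups are mads1 at high temperature (HT), mads1 at low temperature (LT), wild type (WT) at HT and WT at LT, with 3 libraries each, every library from a pool of 15 to 20 spikes. HT is 25 °C in the light and 20 °C at night, LT is 15 °C in the light and 10 °C at night, and W2.5 is a stage of early spike development on the Waddington scale. The 12 libraries of the later stage W3.5, with the same 4 groups, served only to measure the same interaction again. The plants here called mads1 are labelled as the HvMADS1 mutant. The sources used here do not give the kind of mutation or the number of lines. A difference of line between mads1 HT and mads1 LT therefore cannot be told apart from temperature, and was not tested. The labels call the 3 libraries of a group biological replicates.

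HvMADS1 belongs to the SEPALLATA class of MADS-box transcription factors, which bind DNA as complexes with other MADS-box proteins and set the identity and determinacy of floral meristems. In grasses the class has several members, beside the AP1/FUL-type genes of inflorescence and floral meristems, the AGL6-type gene, and the B-class and C-class genes of the inner floral organs. The study's title concerns how MADS1 keeps the spike determinate at high ambient temperature.

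Total counts at W2.5 ran from 13283533 to 19864259, so that 3 reads stood at 0.151 to 0.226 CPM, a library's reads of a gene scaled to a common total. In WT HT replicate 3 the 100 identifiers with the most reads held 26.9% of all reads, and its TMM scaling factor was 0.575, against 0.972 to 1.06 in the other 11 libraries. The AP1/FUL-type genes HvMADS14, HvMADS15 and HvMADS18, which mark grass inflorescence meristems, were detected in every library. HvMADS14 averaged 275 ± 20.2 CPM in mads1 HT, 231 ± 22.9 CPM in mads1 LT, 292 ± 19.7 CPM in WT HT without replicate 3 and 296 ± 9.80 CPM in WT LT (SD, n = 3, 3, 2 and 3). Lists of markers of other cell types could not be matched, because neither the files nor the RefSeq table used here pair the identifiers with gene names. These are whole-spike pools, where fewer cells of a type and less RNA per cell cannot be told apart. The labels used here give no time of day of sampling, so a difference in it between groups cannot be told apart from temperature or genotype. The groups share the stage label W2.5. A difference in progress within that stage cannot be told apart from temperature or genotype either, and was not tested.

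The targeted gene comes first. HvMADS1 had 8.54, 13.5 and 9.27 CPM in mads1 HT, 15.5, 23.2 and 14.0 CPM in mads1 LT, 6.48 and 10.3 CPM in WT HT, and 36.9, 44.6 and 40.6 CPM in WT LT. The 3 WT LT libraries lay above all others, while mads1 HT and WT HT overlapped. By edgeR's quasi-likelihood test, HT lowered it by less in mads1 (log2 -0.73, SE 0.22, adjusted p = 0.0216) than in WT (log2 -2.29, SE 0.25, adjusted p = 0.000115). The interaction was 1.56 (SE 0.33, adjusted p = 0.0375). Reads of the gene were thus present in the mutant in both temperatures: mads1 differed from WT at LT (log2 -1.21, adjusted p = 0.00284), and at HT no difference passed the test (log2 0.35, adjusted p = 0.569). Read counts over the whole gene do not show whether a protein is made.

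Over all genes, 17983 were tested in the 11 libraries and 230 were called at an adjusted p under 0.05, which is 1.28%. The interaction was positive for 97 of them (0.539% of genes tested) and negative for 133 (0.74%), and 2101 genes had an unadjusted p under 0.05. The called genes had a median absolute interaction of 1.35 on the log2 scale, with a range of 0.50 to 11.1, against a median of 0.177 over all genes tested. An interaction of at least 1 in size was found for 157 of the 230, and of at least 2 for 65. The called genes were spread over all chromosomes as the identifiers write them, from 1.08% of genes tested on chromosome 5 to 1.68% on chromosome 4, with 0.617% among identifiers not placed on a chromosome.

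The temperature effect itself was common in the same fit. HT against LT was called for 5635 genes in mads1 (31.3%; 17% higher and 14.3% lower) and for 2953 genes in WT (16.4%; 9.43% higher and 6.99% lower), where WT HT has only 2 libraries. Of the 230 interaction genes, 77 were called for temperature in mads1 and not in WT, 73 in WT and not in mads1, and 47 in both in opposite directions. These are 33.5%, 31.7% and 20.4% of the called genes, against 19.6%, 4.68% and 0.261% of all genes tested. A further 24 were called in both genotypes in 1 direction with the larger effect in mads1 (10.4%, against 6.52% of all genes tested), and 9 with the larger effect in WT (3.91% against 4.97%). Looked at by temperature, the genotypes differed at HT and not at LT for 119 of the 230 (51.7%, against 3.30% of all genes tested). At LT and not at HT they differed for 60 (26.1%, against 3.00% of all genes tested). Counted at each temperature regardless of the other, genotype effects were called for 5.19% of all genes at HT and 4.89% at LT. All these effects come from the same 11 libraries as the interaction and only describe its shape.

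**Figure D1:**
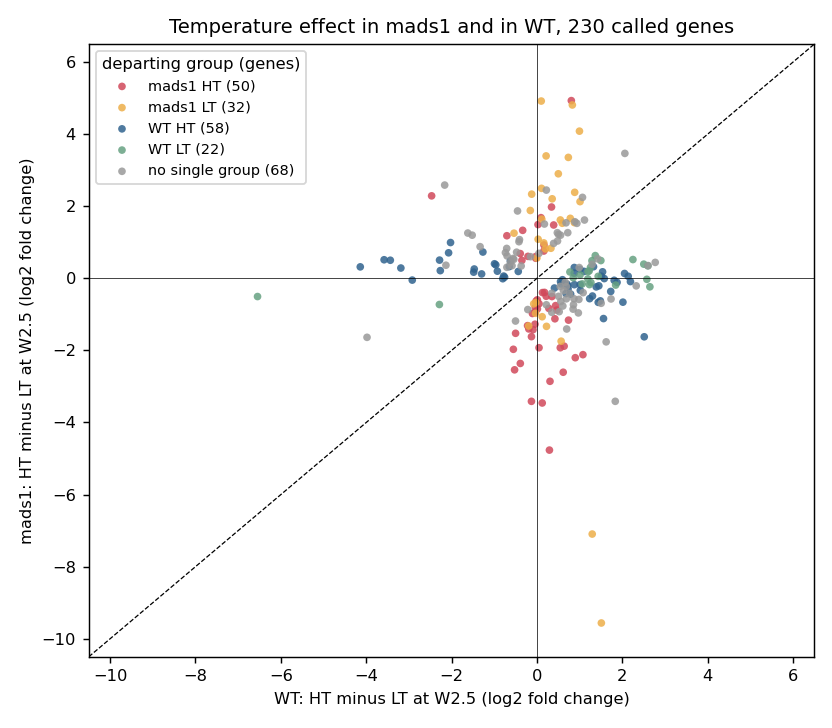
Each point is 1 of the 230 called genes, with HT minus LT in WT across and HT minus LT in mads1 up, both as log2 fold changes, coloured by the group whose mean stood apart; the dashed line marks equal effects. Points off the dashed line differ between the genotypes, and those in the upper left and lower right have opposite signs, such as HORVU7Hr1G121210 at 2.51 in WT and -1.62 in mads1; the lowest point, at -9.56 in mads1, is HORVU2Hr1G112080.

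The same interaction can arise because any 1 of the 4 groups stands apart, so each gene was sorted by its 4 group means of log2(CPM + 0.5). A group stood apart when it was the highest or lowest and its distance to the nearest group was at least the range of the other 3. Such a group was found for 162 of the 230 called genes (70.4%), against 43.4% of all genes tested. The sorting uses the same libraries as the calls, and a large interaction makes a group apart more likely. A higher share among called genes is therefore partly built in and only describes their shape. mads1 HT stood apart in 50 genes (21.7% of called genes, 11.9% of all tested), mads1 LT in 32 (13.9% and 12.9%), WT HT in 58 (25.2% and 12%) and WT LT in 22 (9.57% and 6.62%). The remaining 68 had no such group. With a distance of at least 2 times that range, the counts were 27 for mads1 HT (11.7% of called genes, 4.92% of all tested), 16 for mads1 LT (6.96% and 4.41%), 30 for WT HT (13% and 4.60%) and 12 for WT LT (5.22% and 2.53%). By direction, mads1 HT was low in 35 genes (15.2% of called genes, 5.16% of all tested) and high in 15 (6.52% and 6.77%), and mads1 LT was low in 23 (10.0% and 6.60%) and high in 9 (3.91% and 6.28%). WT HT was high in 36 (15.7% and 5.89%) and low in 22 (9.57% and 6.08%), and WT LT was low in 20 (8.70% and 3.61%) and high in 2 (0.870% and 3.01%). Differences between the directions were not tested. The 2 genes high in WT LT were HvMADS1 and HvMADS6.

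**Figure D2:**
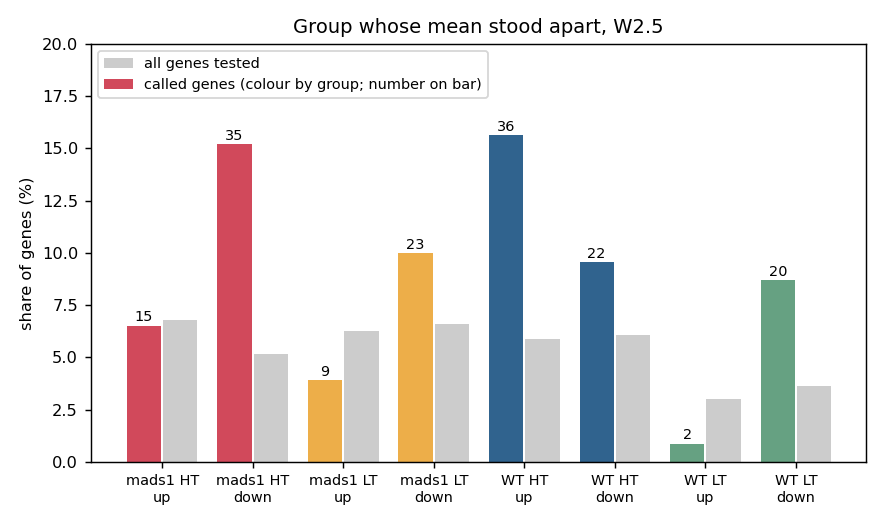
Bars give the share of genes, in percent, in which each group stood apart as the highest (up) or lowest (down) mean; coloured bars are the 230 called genes, with their number on the bar, and grey bars all 17983 genes tested. The tallest coloured bars are WT HT up with 36 genes and mads1 HT down with 35, and the shortest is WT LT up with 2.

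In 50 genes the mutant at HT was the exception. The identifiers named here and below for each group were chosen among those whose libraries of that group overlapped no library of the other groups. HORVU3Hr1G031940 had 53.2, 60.2 and 41.4 CPM in mads1 HT, 2.56, 1.53 and 1.07 CPM in mads1 LT, 2.43 and 2.71 CPM in WT HT, and 2.04, 0.952 and 1.27 CPM in WT LT. Every mads1 HT library exceeded every other library, and the interaction was 4.12 (SE 0.46, adjusted p = 0.000381, edgeR). HORVU5Hr1G124030 had 18.5, 17.0 and 22.5 CPM in mads1 HT, 9.74, 7.73 and 8.44 CPM in mads1 LT, 4.92 and 5.64 CPM in WT HT, and 9.40, 7.0 and 9.26 CPM in WT LT. It was thus high in mads1 HT and lowest in WT HT, with an interaction of 1.89 (SE 0.24, adjusted p = 0.00119).

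More often mads1 HT was the low group. HORVU4Hr1G047430 had 2.36, 2.86 and 2.79 CPM in mads1 HT, 32.2, 27.8 and 26.9 CPM in mads1 LT, 25.4 and 30.5 CPM in WT HT, and 26.3, 35.2 and 30.7 CPM in WT LT. The other 3 groups overlapped and mads1 HT lay far below them, with an interaction of -3.28 (SE 0.19, adjusted p = 2.2e-06, edgeR). HT lowered this gene in mads1 (log2 -3.41, SE 0.14), whereas in WT the difference was -0.13 (SE 0.12, adjusted p = 0.527). HORVU4Hr1G037380 had 0.121, 0.286 and 0.318 CPM in mads1 HT, 6.09, 7.90 and 6.53 CPM in mads1 LT, 4.28 and 4.54 CPM in WT HT, and 5.51, 2.18 and 2.95 CPM in WT LT. Its interaction was -5.06 (SE 0.55, adjusted p = 0.000351), with mads1 HT again below every other library.

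In 32 genes the mutant at LT was the exception, and mads1 HT was nearer to WT. HORVU5Hr1G054000 had 9.33, 9.27 and 6.60 CPM in mads1 HT, 0.305, 0.341 and 0.178 CPM in mads1 LT, 27.4 and 30.3 CPM in WT HT, and 28.5, 29.6 and 23.1 CPM in WT LT. In WT the temperature difference did not pass (log2 0.10, SE 0.15, adjusted p = 0.693), while mads1 was higher at HT than at LT (log2 4.92, SE 0.25), and the interaction was 4.82 (SE 0.31, adjusted p = 4.0e-06, edgeR). mads1 remained below WT at HT, by -1.76 on the log2 scale (adjusted p = 8.0e-06). HORVU5Hr1G030720 had 12.3, 14.8 and 17.5 CPM in mads1 HT, 0.670, 0.625 and 0.297 CPM in mads1 LT, 21.8 and 25.6 CPM in WT HT, and 15.3, 11.9 and 12.7 CPM in WT LT. Here mads1 HT overlapped WT LT, mads1 LT lay below all, and the interaction was 3.98 (SE 0.32, adjusted p = 2.9e-05).

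Among the 9 genes high in mads1 LT were those with the most extreme interaction in size of all called genes. HORVU6Hr1G081270 had 0.727, 0.686 and 0.127 CPM in mads1 HT, 83.8, 68.0 and 68.4 CPM in mads1 LT, 0.521 and 0.366 CPM in WT HT, and 0.0950, 0.136 and 0.305 CPM in WT LT. It was abundant only in the mads1 LT libraries among these 11, with an interaction of -8.39 (SE 0.90, adjusted p = 0.000349, edgeR). HORVU2Hr1G112080 had no read in the 3 mads1 HT libraries, 6.33, 4.66 and 5.76 CPM in mads1 LT, 0.0579 and 0.0733 CPM in WT HT, and 0, 0 and 0.0509 CPM in WT LT. Set against a floor of 3 reads over the mads1 HT group, it was at least 92.6-fold lower in mads1 HT than in mads1 LT. Its fitted interaction of -11.07 (adjusted p = 0.0193, edgeR) rests on mads1 HT without reads and on 2 reads in WT HT and 1 in WT LT. It depends on the prior count.

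In 58 genes the wild type at HT was the exception, with both mads1 groups on the side of WT LT. HORVU2Hr1G030660 had 16.1, 21.3 and 18.4 CPM in mads1 HT, 15.1, 19.0 and 11.2 CPM in mads1 LT, 0.579 and 1.25 CPM in WT HT, and 18.9, 16.8 and 11.4 CPM in WT LT. HT lowered it in WT (log2 -4.14, SE 0.37), the difference in mads1 did not pass (log2 0.32, SE 0.21, adjusted p = 0.277), and the interaction was 4.46 (SE 0.43, adjusted p = 0.000147, edgeR). HORVU4Hr1G089560 had 38.9, 43.4 and 45.5 CPM in mads1 HT, 31.9, 34.0 and 25.7 CPM in mads1 LT, 1.51 and 2.93 CPM in WT HT, and 28.3, 26.4 and 16.0 CPM in WT LT. It was low in WT HT alone, with an interaction of 3.94 (SE 0.35, adjusted p = 8.3e-05).

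Of the 36 genes high in WT HT, HORVU7Hr1G070870 had 38.5, 47.4 and 45.9 CPM in mads1 HT, 85.2, 108 and 96.8 CPM in mads1 LT, 357 and 360 CPM in WT HT, and 127, 120 and 120 CPM in WT LT. HT against LT went in opposite directions: the gene fell in mads1 (log2 -1.12, SE 0.10) and rose in WT (log2 1.56, SE 0.11), with an interaction of -2.68 (SE 0.15, adjusted p = 2.2e-06, edgeR). HORVU7Hr1G121210 had 0.787, 0.801 and 1.02 CPM in mads1 HT, 2.62, 2.39 and 3.15 CPM in mads1 LT, 23.9 and 24.1 CPM in WT HT, and 3.85, 3.94 and 4.83 CPM in WT LT. It too fell in mads1 (log2 -1.62, SE 0.21) and rose in WT (log2 2.51, SE 0.16), and its interaction was -4.14 (SE 0.26, adjusted p = 3.6e-06).

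In 22 genes the wild type at LT was the exception. HORVU5Hr1G078800 had 2.97, 5.61 and 4.13 CPM in mads1 HT, 4.39, 5.74 and 5.05 CPM in mads1 LT, 11 and 8.50 CPM in WT HT, and 1.19, 1.16 and 2.29 CPM in WT LT. The mads1 groups overlapped and lay between the WT groups, with an interaction of -2.88 (SE 0.41, adjusted p = 0.00281, edgeR). HORVU6Hr1G027340 had 3.51, 4.12 and 3.87 CPM in mads1 HT, 4.45, 2.96 and 4.51 CPM in mads1 LT, 5.10 and 6.16 CPM in WT HT, and 1.09, 1.02 and 0.712 CPM in WT LT. HT raised it in WT (log2 2.57, SE 0.25) and its difference in mads1 did not pass (log2 -0.03, SE 0.21, adjusted p = 0.933), for an interaction of -2.60 (SE 0.33, adjusted p = 0.00108).

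**Figure D3:**
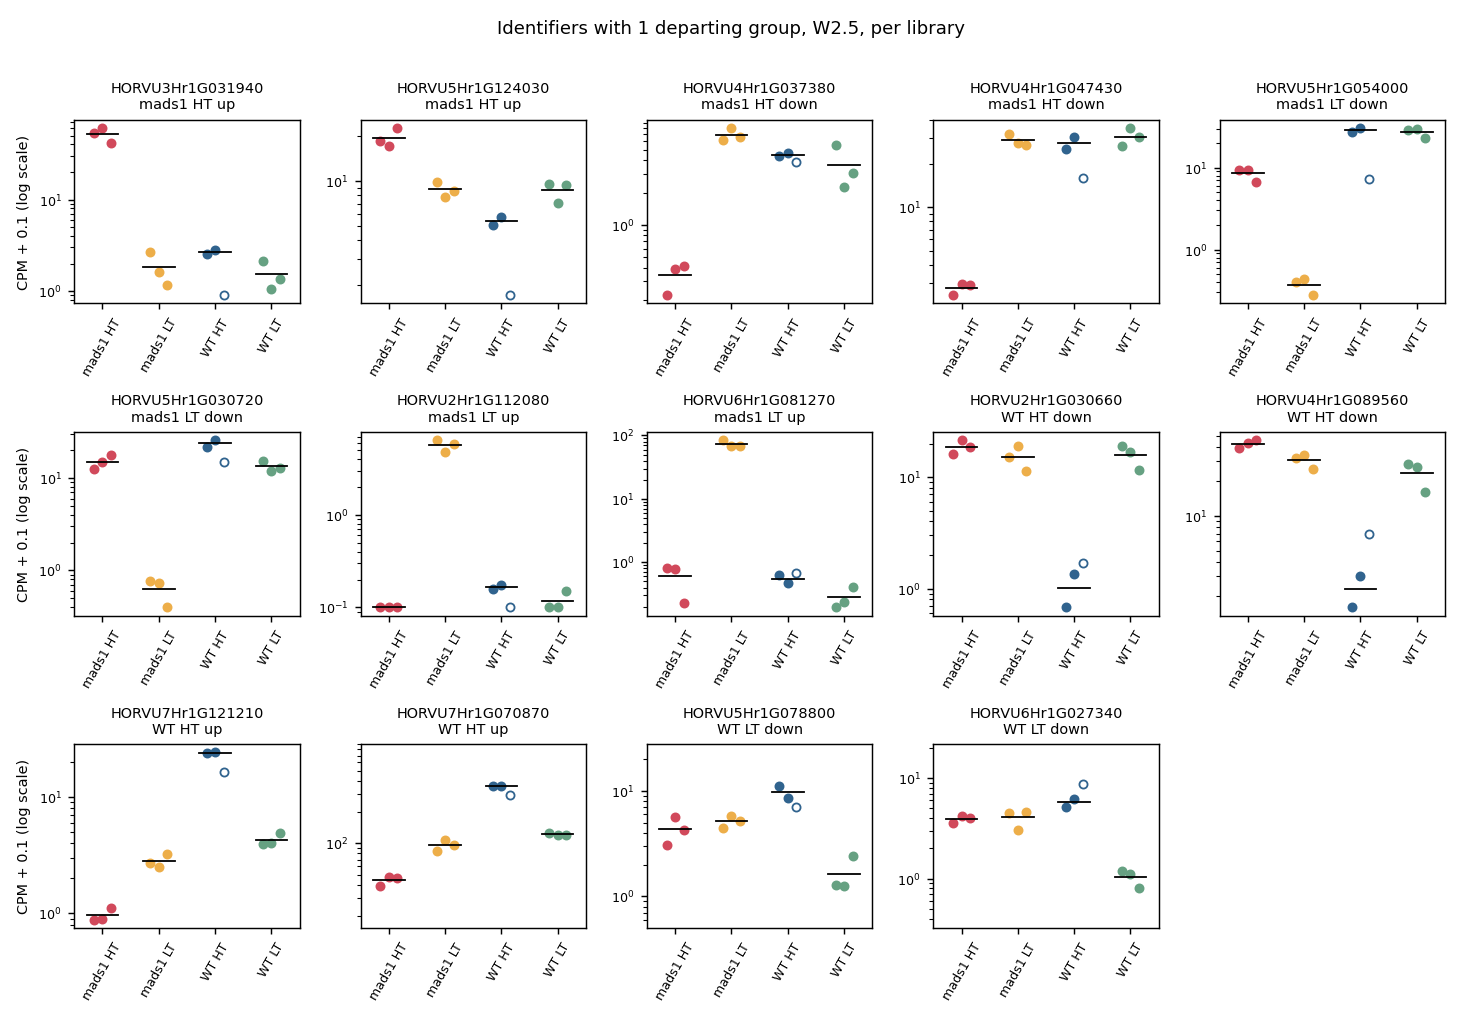
Each panel is 1 identifier in which a single group stood apart, with CPM + 0.1 on a log axis for every W2.5 library; the bar is the group mean without WT HT replicate 3, which is drawn hollow. In every panel the group named in its title lies apart from the filled points of the other 3 groups, because the identifiers were chosen for this. The hollow point of HORVU5Hr1G054000, at 7.23 CPM, falls among the mads1 HT libraries and not with the other WT HT points.

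Of the called genes with an interaction of at least 1 in size, 2 positive and 2 negative ones had the highest mean CPM of their sign over the 4 groups, on a scale not corrected for gene length. HORVU4Hr1G003060 had 6492, 5477 and 5135 CPM in mads1 HT, 5441, 4083 and 3621 CPM in mads1 LT, 2136 and 2206 CPM in WT HT, and 3632, 4975 and 4459 CPM in WT LT. It rose with HT in mads1 (log2 0.40, SE 0.14, adjusted p = 0.0461) and fell in WT (log2 -1.0, SE 0.16, adjusted p = 0.0016), with an interaction of 1.40 (SE 0.22, adjusted p = 0.00513, edgeR). HORVU7Hr1G113480 had 436, 529 and 538 CPM in mads1 HT, 821, 552 and 668 CPM in mads1 LT, 752 and 809 CPM in WT HT, and 435, 505 and 450 CPM in WT LT. It moved the other way, with an interaction of -1.18 (SE 0.18, adjusted p = 0.00513). HORVU4Hr1G003060 lost its call without WT HT replicate 1 (adjusted p = 0.0621) and with all 24 libraries (adjusted p = 0.0676). HORVU4Hr1G011740 (1.79, SE 0.35, adjusted p = 0.0235) and HORVU2Hr1G089190 (-1.21, SE 0.23, adjusted p = 0.0191) complete the set. Each of these last 2 lost its call in 6 of the 11 fits that leave out 1 library. All 4 lost it in the 12 libraries with WT HT replicate 3. With all 24 libraries, HORVU7Hr1G113480 (adjusted p = 0.0138, edgeR) and HORVU2Hr1G089190 (adjusted p = 0.0361) were called, and HORVU4Hr1G011740 was not (adjusted p = 0.301).

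The 47 genes with opposite temperature effects were 23 with a positive and 24 with a negative interaction. The most opposed were found at low levels. HORVU1Hr1G043080 had 2.12, 2.40 and 1.52 CPM in mads1 HT, 0.670, 0.284 and 0.297 CPM in mads1 LT, 0.0579 and 0.147 CPM in WT HT, and 0.712, 0.544 and 0.458 CPM in WT LT. The 2 WT HT values stand below 3 reads, so its fold in WT is poorly measured. Its interaction was 4.76 (SE 0.76, adjusted p = 0.00643, edgeR), and it lost the call without WT HT replicate 1 (adjusted p = 0.0877). HORVU3Hr1G096710 had 0.0606, 0.0572 and 0.191 CPM in mads1 HT, 1.34, 1.31 and 0.832 CPM in mads1 LT, 3.30 and 4.40 CPM in WT HT, and 1.23, 0.884 and 1.07 CPM in WT LT. It was lowest in mads1 HT and highest in WT HT, with LT libraries of both genotypes in between, and its interaction was -5.25 (SE 0.57, adjusted p = 0.000351).

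The MADS-box list holds 13 identifiers, named from knowledge of the barley family and not checked by sequence. Of these, 12 had enough reads to be tested and 2 were called, HvMADS1 and HvMADS6, both positive; the called share of all genes was 1.28%. The interaction was positive for 10 of the 12, with a median of 1.18 on the log2 scale against 0.0157 over all genes tested; it was also 1.18 with HvMADS7, the only listed gene with groups without reads, set to a floor of 3 reads per group. Both calls were of genes high in WT LT. HT against LT was lower for 9 and higher for none of the 12 in WT, and lower for 6 and higher for 1, HvMADS14, in mads1, where 6.99% of all genes were lower in WT and 14.3% in mads1.

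Among the SEPALLATA-class genes beside HvMADS1, HvMADS34 and HvMADS5 were lower at HT in both genotypes and their interactions did not pass. HvMADS34 had 47.6, 43.5 and 39.0 CPM in mads1 HT, 89.7, 115 and 106 CPM in mads1 LT, 36.6 and 40.6 CPM in WT HT, and 78.1, 103 and 79.3 CPM in WT LT, for an interaction of -0.08 (SE 0.18, adjusted p = 0.928, edgeR). HvMADS5 had 2.85, 3.49 and 3.37 CPM in mads1 HT, 14.6, 11.7 and 10.8 CPM in mads1 LT, 2.61 and 4.69 CPM in WT HT, and 18.3, 24.4 and 15.7 CPM in WT LT, for 0.51 (SE 0.32, adjusted p = 0.601). In both genes the HT libraries of this fit lay below all LT libraries. WT HT replicate 3 had 151 CPM of HvMADS34, above every LT library, and with it the interaction was -1.08 (adjusted p = 0.744). The SEPALLATA3-type genes HvMADS7 and HvMADS8, which act later in floral organs, were near the floor outside WT LT. HvMADS7 had 0.121, 0.515 and 0.0635 CPM in mads1 HT, no read in mads1 LT, none in the 2 WT HT libraries, and 0.712, 3.06 and 0.203 CPM in WT LT. It was at least 13.7-fold lower in WT HT than in WT LT, against a floor of 3 reads over the WT HT group, and its interaction did not pass (adjusted p = 0.149).

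HvMADS6, the AGL6-type gene of floral meristems, had 0.303, 0.801 and 0 CPM in mads1 HT, 0.487, 0.852 and 0.297 CPM in mads1 LT, 0.116 and 0.0733 CPM in WT HT, and 9.50, 14.7 and 5.54 CPM in WT LT. It was thus near the floor in all but the WT LT libraries. In WT it was lower at HT than at LT (log2 -6.55, SE 0.84, adjusted p = 0.000307, edgeR), the difference in mads1 did not pass (log2 -0.51, SE 0.76, adjusted p = 0.646), and the interaction was 6.04 (SE 1.30, adjusted p = 0.0404). HvMADS1 and HvMADS6 each kept the call in only 3 of the 11 fits that leave out 1 library. HvMADS32, a grass MADS-box gene, had 68.1, 69.2 and 49.0 CPM in mads1 HT, 84.5, 91.8 and 78.0 CPM in mads1 LT, 43.5 and 47.3 CPM in WT HT, and 98.9, 124 and 98.4 CPM in WT LT. HT lowered it in both genotypes, and the interaction of 0.80 missed the threshold (SE 0.19, adjusted p = 0.0672).

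The AP1/FUL-type genes showed interactions between -0.10 for HvMADS15 and 0.28 for HvMADS14, none past the threshold. The B-class gene HvMADS16 (1.67, SE 0.71, adjusted p = 0.377, edgeR), the C-class gene HvMADS58 (2.44, SE 0.85, adjusted p = 0.248) and HvMADS8 (5.95, SE 2.37, adjusted p = 0.338) did not pass either, and the C-class gene HvMADS3 was not tested. Within WT LT, replicate 2 was the highest of the 3 libraries for 13 of the 13 listed genes; for HvMADS8 it had 3.67 CPM, against 1.28 and 0.509 CPM in the other 2. Without this library HvMADS1 (1.49, adjusted p = 0.0342) and HvMADS6 (5.66, adjusted p = 0.0253) stayed called, while HvMADS16 was at 0.91 and HvMADS58 at 1.71, neither called.

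**Figure D4:**
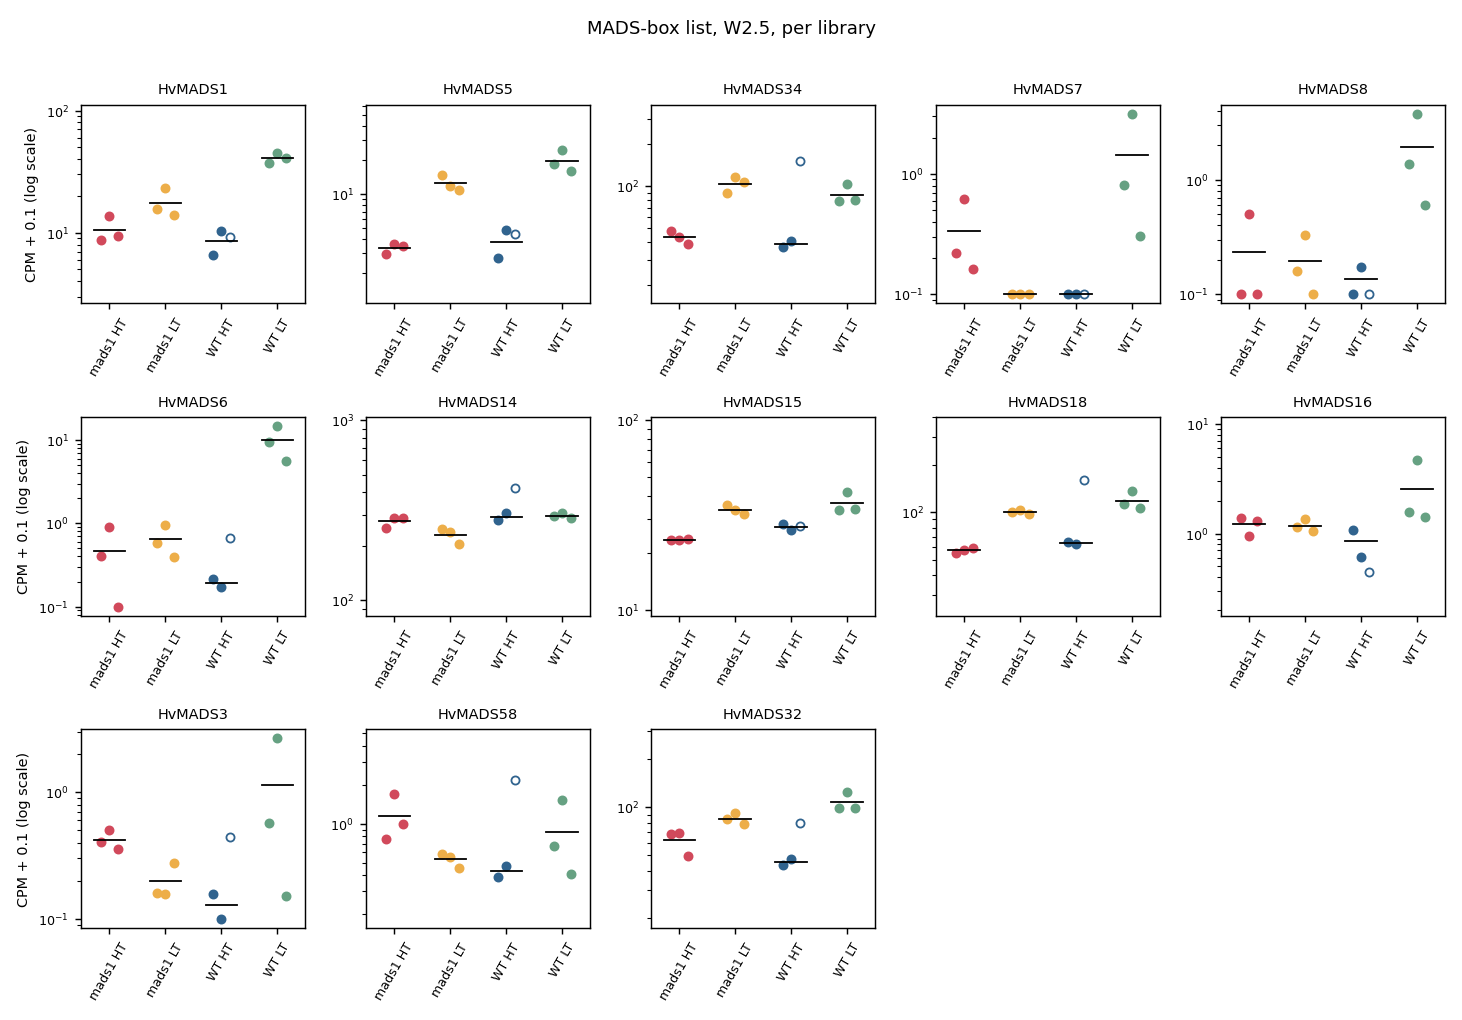
Each panel is 1 of the 13 listed MADS-box genes, with CPM + 0.1 on a log axis for every W2.5 library; the bar is the group mean without WT HT replicate 3, which is drawn hollow. HvMADS1 and HvMADS6 stand high in WT LT alone, while HvMADS34 and HvMADS18 are lower at HT in both genotypes once the hollow point, at 151 and 160 CPM, is set aside.

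With WT HT replicate 3 included, 12 libraries gave 17708 genes tested and 19 called (0.107%), 6 positive (0.0339%) and 13 negative (0.0734%), with 961 at an unadjusted p under 0.05. The 19 were all among the 230, and 223 of the 230 kept the sign of their interaction. The common dispersion, which measures the spread between replicates, was 0.116 with this library and 0.0126 without it. HvMADS1 kept its size and lost the call (1.48, adjusted p = 0.319, edgeR), as did HvMADS6 (4.93, adjusted p = 0.417). The replicate 3 values were 9.18 CPM for HvMADS1, next to the other 2 WT HT libraries, and 0.574 CPM for HvMADS6.

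Of the 14 identifiers in the plot of single groups apart, 10 kept the call in the 12 libraries with that replicate. Those called were HORVU3Hr1G031940 (4.41, adjusted p = 0.0344), HORVU4Hr1G037380 (-5.02, adjusted p = 0.0085), HORVU4Hr1G047430 (-3.08, adjusted p = 0.00669) and HORVU5Hr1G054000 (5.21, adjusted p = 0.0239). HORVU5Hr1G030720 (4.15, adjusted p = 0.00562), HORVU6Hr1G081270 (-8.50, adjusted p = 0.00231), HORVU2Hr1G030660 (4.12, adjusted p = 0.0108), HORVU7Hr1G121210 (-3.99, adjusted p = 0.00169), HORVU7Hr1G070870 (-2.60, adjusted p = 0.00169) and HORVU6Hr1G027340 (-2.85, adjusted p = 0.0297) were called too. The calls lost were HORVU5Hr1G124030 (2.22, adjusted p = 0.232), HORVU2Hr1G112080 (-10.67, adjusted p = 0.1), HORVU4Hr1G089560 (3.16, adjusted p = 0.136) and HORVU5Hr1G078800 (-2.76, adjusted p = 0.0754), each with the same sign. The 4 called genes chosen for the highest mean CPM of their sign all lost the call in these libraries. They stood at 1.18 for HORVU4Hr1G003060 (adjusted p = 0.457, edgeR), 1.2 for HORVU4Hr1G011740 (adjusted p = 0.744), -1.40 for HORVU7Hr1G113480 (adjusted p = 0.165) and -1.26 for HORVU2Hr1G089190 (adjusted p = 0.197). Both genes with opposite effects kept the call, at 5.08 for HORVU1Hr1G043080 (adjusted p = 0.0462) and -4.92 for HORVU3Hr1G096710 (adjusted p = 0.0462).

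Since 58 genes rest on WT HT, the left-out library can be read against them. Its value lay beyond the means of the other 3 groups, on the same side as replicates 1 and 2, for 45 of the 58 (77.6%), against 65.1% of all 2153 genes tested in which WT HT stood apart. It was 1.61 CPM for HORVU2Hr1G030660, 6.88 CPM for HORVU4Hr1G089560, 16.4 CPM for HORVU7Hr1G121210 and 292 CPM for HORVU7Hr1G070870, on the side of its own group in all 4. With it in the means, WT HT stood apart in 46.0% of all genes tested, against 12% without it.

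Fitted with all 8 groups, the 23 libraries without that replicate gave 316 calls (1.69%), 128 positive (0.684%) and 188 negative (1%). Of the 230, 204 were called there, which is 88.7% of the 230 and 64.6% of the 316. HvMADS6 (adjusted p = 0.00517) and HvMADS32 (adjusted p = 0.010) were called in that fit and HvMADS1 was not (adjusted p = 0.533). HORVU6Hr1G081270 was not called there either (adjusted p = 0.208). All 24 libraries gave 126 calls (0.685%), 53 positive (0.288%) and 73 negative (0.397%), of which 107 were among the 230. DESeq2's Wald test on the 11 libraries called 418 genes (2.32%), 174 positive (0.968%) and 244 negative (1.36%), with 229 of the 230 among them. Across the 11 fits that leave out 1 library, the count ran from 89 without WT HT replicate 1 and 101 without WT HT replicate 2, each of which leaves WT HT with 1 library, to 557 without WT LT replicate 2, and 76 of the 230 were called in every fit.

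The 12 libraries of W3.5 share no sample with W2.5. There the interaction was called for 2100 of 17929 genes (11.7%), of which 4.49% were positive and 7.22% negative. Of the 230 genes, 226 were tested at W3.5, 178 had the same sign as at W2.5 (78.8%, against 62.1% of all genes tested at both stages), and 97 were called (42.9%), 88 with the same sign and 9 with the opposite sign. Over all 17603 genes tested at both stages, 11.8% were called at W3.5, 1613 genes with the same sign and 468 with the opposite sign. Genes with mads1 HT apart were called with the same sign in 18 of 49 and with the opposite sign in 2. Those with mads1 LT apart were called so in 23 of 32 and 0, those with WT HT apart in 14 of 57 and 3, and those with WT LT apart in 7 of 22 and 3. The same group stood apart in the same direction at W3.5 in 14 of 49 genes for mads1 HT (28.6%, against 22.2% of all genes of that class), 19 of 32 for mads1 LT (59.4% against 14.9%), 4 of 57 for WT HT (7.02% against 4.90%) and 7 of 22 for WT LT (31.8% against 9.22%). Differences between the classes were not tested.

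**Figure D5:**
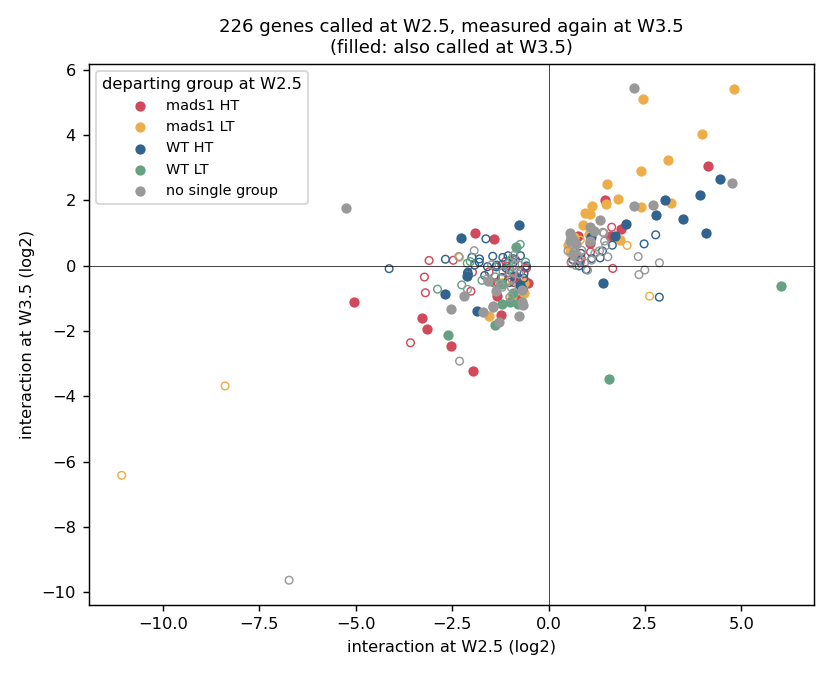
Each point is 1 of 226 genes called at W2.5, with the log2 interaction at W2.5 across and at W3.5 up, coloured by the group apart at W2.5 and filled where it was also called at W3.5. Of the 32 genes with mads1 LT apart, 30 have the same sign at both stages, the highest at W2.5 being HORVU5Hr1G054000 at 4.82 and at 5.40 at W3.5, while HvMADS6 (6.04 at W2.5) and HvMADS1 (1.56) lie below 0 at W3.5.

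For 2 genes low in mads1 LT at W2.5, that group was again the low one at W3.5. HORVU5Hr1G054000 had 10.8, 7.31 and 5.03 CPM in mads1 HT, 0.0549, 0.186 and 0.251 CPM in mads1 LT, 28.9, 29.2 and 25.4 CPM in WT HT, and 24.9, 24.9 and 26.5 CPM in WT LT at W3.5, for an interaction of 5.40 (adjusted p = 8.5e-05, edgeR). HORVU5Hr1G030720 gave 4.04 (adjusted p = 5.7e-05). HORVU6Hr1G081270 had 1.38, 1.32 and 29.6 CPM in mads1 HT and 68.4, 60.1 and 61.7 CPM in mads1 LT, with at most 1.80 CPM in WT. Its W3.5 interaction of -3.68 missed the threshold (adjusted p = 0.186) and was -6.66 without mads1 HT replicate 3 (adjusted p = 8.6e-06), the library that departs here. HORVU2Hr1G112080 again had reads mainly in mads1 LT, with 2.69, 4.22 and 3.77 CPM, and none in mads1 HT. It had no read in WT HT and 2 reads in WT LT, so its difference in WT could not be measured. Its interaction of -6.42 did not pass at W3.5, and with so few reads the test decides little. HORVU4Hr1G011740, also low in mads1 LT, had no group apart at W3.5, where its interaction was 2.05 (adjusted p = 0.00426). The library mads1 HT replicate 3 also departs for HvMADS1, as given below.

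Among the named genes with WT HT apart at W2.5, HORVU2Hr1G030660 had 9.73, 12.2 and 16.1 CPM in mads1 HT, 1.87, 1.49 and 1.63 CPM in mads1 LT, 1.62, 2.67 and 2.08 CPM in WT HT, and 1.69, 2.29 and 1.31 CPM in WT LT, so that the interaction was again positive (2.65, adjusted p = 0.00146, edgeR), now with mads1 HT high. HORVU4Hr1G089560 did likewise (2.16, adjusted p = 0.00154). HORVU7Hr1G121210, high in WT HT at W2.5, had an interaction of -0.09 at W3.5 (adjusted p = 0.884), and HORVU7Hr1G070870 had -0.86 (adjusted p = 0.0356). HORVU3Hr1G031940 (3.06, adjusted p = 0.00226) and HORVU4Hr1G047430 (-1.59, adjusted p = 0.00641) stayed high and low in mads1 HT, and HORVU5Hr1G124030 stayed high (1.13, adjusted p = 0.0302). HORVU4Hr1G037380, also low in mads1 HT at W2.5, had no group apart at W3.5, where its interaction was -1.11 (adjusted p = 0.0189). HORVU3Hr1G096710, with opposite effects at W2.5, had the opposite sign at W3.5 (1.77, adjusted p = 0.0158).

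All 13 genes of the MADS-box list were tested at W3.5, 7 were called negative and none positive, and the median interaction was -0.65 on the log2 scale against -0.0039 over all genes tested. The difference between the stages was not tested. HvMADS1 had 0, 0.330 and 13.3 CPM in mads1 HT, 42.1, 45.8 and 50.2 CPM in mads1 LT, 59.3, 61.3 and 64.9 CPM in WT HT, and 55.1, 61.1 and 61.0 CPM in WT LT. Replicate 3 of mads1 HT stood above the other 2, and the interaction was -3.46 with it (adjusted p = 0.0421, edgeR) and -8.02 without it (adjusted p = 1.5e-08). HvMADS6, near the floor in 3 groups at W2.5, had 14.0, 14.6 and 13.5 CPM in mads1 HT, 27.3, 31.1 and 34.3 CPM in mads1 LT, 23.6, 21.1 and 25.2 CPM in WT HT, and 33.3, 34.7 and 31.0 CPM in WT LT. Its interaction was -0.63 (adjusted p = 0.0135), with the lowest level in mads1 HT. Leaving out mads1 HT replicate 3, the list again had 7 negative calls and none positive, where 12.4% of all genes were called, 4.99% positive and 7.46% negative.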

How the data were processed

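RNA of pooled barley spikes was sequenced from TruSeq RNA libraries, per the labels' protocols. HISAT2 and HTSeq were used, per the submitters' processing notes; the sources used here do not give versions, genome build, annotation or strand setting. Counts of genes that overlap, lie antisense or have near-identical copies are therefore uncertain. The authors deposited raw whole-number read counts for each identifier, and these were used as deposited. None of the 39734 identifiers matched the RefSeq table.

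Genes were filtered with filterByExpr and scaled with TMM; 4 group means were fitted to 11 libraries by edgeR 4.0.16 (quasi-likelihood F test, R 4.3.3), with Benjamini-Hochberg adjustment over all genes tested and a threshold of 0.05. The script was tested on simulated data. Each standard error is the log2 value divided by the root of its F statistic. Levels are CPM, TMM-scaled over all 24 libraries. Floors cover counting error only. Replicate pairs differed by more than sampling noise, with a chi-square per degree of freedom of 3.37 to 438 at W2.5. The highest values were of WT HT replicate 3, at 438 and 390. WT LT replicate 2 stood at 24.8 from replicate 1 and 18.2 from replicate 3, against 5.58 between replicates 1 and 3.

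The comparison, lists and named-gene rule were chosen with earlier results of these data known. The rule names the 13 MADS-box genes. For each group apart, it takes up to 2 called genes of either sign with the most extreme interaction, at least 5 CPM in the highest group and no overlap of libraries. It adds the 2 of either sign with the highest CPM at a size of at least 1, and the most opposed gene of either direction. Other identifiers are counted only. Alternatives were other libraries, scalings and filters, DESeq2 1.42.0, robust estimation, a replicate block and each library left out. Leaving out each W3.5 library in turn was added after the data were seen, except for mads1 HT replicate 3, which was planned.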

Additional observations from a re-analysis of the deposited data

Results flagged for a closer look

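In 22 genes named above, the temperature effect differed between mads1 and WT by the test of the difference itself, edgeR's interaction test at W2.5 in 11 libraries (mads1 minus WT, log2, adjusted p under 0.05). In the MADS-box list these were HvMADS1 at 1.56 and HvMADS6 at 6.04. With mads1 HT apart they were HORVU3Hr1G031940 at 4.12, HORVU5Hr1G124030 at 1.89, HORVU4Hr1G037380 at -5.06 and HORVU4Hr1G047430 at -3.28. With mads1 LT apart they were HORVU5Hr1G054000 at 4.82, HORVU5Hr1G030720 at 3.98, HORVU2Hr1G112080 at -11.07 and HORVU6Hr1G081270 at -8.39. With WT HT apart they were HORVU2Hr1G030660 at 4.46, HORVU4Hr1G089560 at 3.94, HORVU7Hr1G121210 at -4.14 and HORVU7Hr1G070870 at -2.68. With WT LT low they were HORVU5Hr1G078800 at -2.88 and HORVU6Hr1G027340 at -2.60. Among the called genes chosen for the highest mean CPM of their sign they were HORVU4Hr1G003060 at 1.40, HORVU4Hr1G011740 at 1.79, HORVU7Hr1G113480 at -1.18 and HORVU2Hr1G089190 at -1.21. With opposite temperature effects they were HORVU1Hr1G043080 at 4.76 and HORVU3Hr1G096710 at -5.25. In the 12 libraries with WT HT replicate 3, HvMADS1, HvMADS6, HORVU5Hr1G124030, HORVU2Hr1G112080, HORVU4Hr1G089560, HORVU5Hr1G078800 and those chosen for the highest CPM lost the call. With all 24 libraries, HvMADS6 (adjusted p = 0.0149, edgeR), HORVU5Hr1G124030 (0.00944), HORVU2Hr1G112080 (0.0374), HORVU4Hr1G089560 (0.00207) and HORVU5Hr1G078800 (0.00136) were called. HORVU7Hr1G113480 (0.0138) and HORVU2Hr1G089190 (0.0361) were called there too, while HvMADS1 (0.509), HORVU4Hr1G003060 (0.0676) and HORVU4Hr1G011740 (0.301) were not. HvMADS1 (adjusted p = 0.533, edgeR) and HORVU6Hr1G081270 (adjusted p = 0.208) were not called in the fit of 23 libraries. Groups of 3 libraries were not tested for a library far from the others.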

How the results depend on the processing

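The number of called genes (230, with 97 positive and 133 negative) moved by more than 1.5 times with WT HT replicate 3 in 12 libraries (19, with 6 and 13), with all 24 libraries (126, with 53 and 73) and with DESeq2 (418, with 174 and 244). It ranged from 89 to 557 when 1 library was left out (34 to 216 positive, 55 to 341 negative). The fits without WT LT replicate 2 (557), WT HT replicate 1 (89), WT HT replicate 2 (101), mads1 LT replicate 3 (148) and mads1 HT replicate 2 (153) moved the total by more than 1.5 times; without mads1 LT replicate 2 the positive calls were 62. A WT HT left with 1 library is assumed to vary like the other groups. The cause was not tested. The other settings gave 184 to 331 calls, the lowest with a replicate block (84 positive, 100 negative) and the highest without the filter on low counts. Same-numbered libraries did not deviate together (r from -0.43 to 0.22 over 15 pairs), so the numbers were not read as pairs, and under the replicate block HORVU2Hr1G112080 lost its call. Of 634 values for 32 named genes, 571 kept direction and side of the threshold, 51 lost a call, 8 gained one and 4 turned. Those were HvMADS18 (-0.52 with 12 libraries, -0.51 with 24, -0.031 without WT LT replicate 2, in a leave-one-out range of -0.031 to 0.15) and HvMADS34 (0.0037 without mads1 LT replicate 2, in a range of -0.22 to 0.0037), neither called. The number of genes called again at W3.5 with the same sign was 63 to 100 when 1 library was left out. Depth limits genes near 0.2 CPM, such as HvMADS7 and HvMADS8.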
